A study of Mus musculus with 6 samples.

Results

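The genes described here carry vitamin E, lipoproteins and sterols into, through and out of cells. They are 10 of the 27998 genes in the deposited table, chosen by name: Ttpa, Ttpal, Scarb1, Lpl, Npc1, Npc2, Abca1, Abcg1, Pltp and Lrp1. The study profiled single cells of mouse dorsal root ganglia, labelled as neurons, in 3 groups of 2 mice. The groups were Ttpa-/- mice on a vitamin E deficient diet (mice 654, female, and 657, male), Ttpa-/- mice on a vitamin E supplemented diet (670, male, and 671, female) and Ttpa+/+ mice labelled with a basal vitamin E diet, called wild type here (698, female, and 699, male). Ttpa-/- mice were 6 months old and wild type mice 5 months, so age, diet and genotype cannot be told apart between Ttpa-/- and wild type mice. The labels do not give the strain or the part of Ttpa that was deleted.

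Vitamin E reaches tissues as alpha-tocopherol carried by lipoproteins. Cells take it up by lipoprotein receptors, by selective lipid uptake and after lipoprotein lipase has hydrolysed the triglyceride of the particle, and it moves through late endosomes and lysosomes with cholesterol. ABC transporters return sterols and tocopherol to lipoproteins, and alpha-tocopherol transfer protein, the product of Ttpa, keeps the vitamin in circulation by its action in the liver. Loss of this protein gives vitamin E deficiency with sensory ataxia, and dorsal root ganglion neurons are among the cells affected.

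The 6 libraries held 12538785 to 19383933 unique molecular identifiers (UMIs, counted RNA molecules), with medians of 2499.5 to 4959 per cell, and 670 and 654 were the shallowest. Of 21685 cells, 261 barcodes occurred in more than 1 library. After filtering, 21024 cells formed 22 clusters, 20 of them neuronal. Fixed marker sets named peptidergic nociceptors (PEP-like), large myelinated neurons (NF-like), Mrgprd nociceptors (NP1-like), Mrgpra3 itch neurons (NP2-like), Sst itch neurons (NP3-like), Th-type C-fibre mechanoreceptors (TH-like) and a small TRPM8-like cluster. Defining markers separated 5 of these classes: Mrgprd stood at 109 to 171 UMIs per 1000000 summed UMIs (CPM) in NP1-like neurons and at most 3.51 in the other classes, Mrgpra3 at 328 to 413 in NP2-like, Sst at 1120.0 to 1550.0 in NP3-like, Th at 415 to 521 in TH-like and Nefh at 1594 to 2070.0 in NF-like neurons. Calca was high in PEP-like (4521 to 5611 CPM) and also in NP2-like neurons (4140.0 to 5314 CPM). TRPM8-like cells had Trpm8 at 0 to 33.5 CPM and 19 cells in mouse 699, and were not tested. Clusters 8, 12 and 18 stayed unnamed because markers of a different set outnumbered, among the leading genes, those of the best-scoring set, which was non-myelinating Schwann cells for 8 and 12 and satellite glia for 18. No satellite-glia cluster formed, whereas at a Leiden resolution of 2 clusters of 501 and 406 cells took that name, and all 11 satellite-glia markers had UMIs in the neuron sums.

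Ttpa itself was nearly absent from these cells. Counted over all cells, it had 4 and 5 UMIs in the libraries labelled Ttpa-/- deficient, 1 and 4 in those labelled Ttpa-/- supplemented, and 0 in both labelled wild type, where 3 counts would be 0.171 and 0.155 CPM. The 14 UMIs lay in 14 cells, 5 of the UMIs in PEP-like, 5 in TH-like and none in NP3-like neurons, and the only one outside neurons was in an endothelial-like cell. All 14 lay in libraries labelled Ttpa-/-, and this split between genotypes was not tested. Counts this low cannot rank single libraries, and 3' reads outside a deleted part of the gene check nothing about the deletion. Genotypes are thus those of the labels. Ttpa lies on chromosome 4 (GRCm38, 20007938 to 20030785, plus strand). It did not pass the filter on low counts and was not tested.

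Ttpal encodes a relative of the transfer protein with the same kind of lipid-binding CRAL-TRIO domain (chromosome 2, 163602314 to 163619013). It was present in every neuron class. Over 6 mice it averaged 25.8 ± 2.48 CPM in NF-like (SD, range 23.4 to 29.7), 21.6 ± 2.03 in PEP-like, 21.3 ± 5.65 in NP3-like, 20.5 ± 1.63 in TH-like, 17.6 ± 1.70 in NP2-like and 15.5 ± 1.72 in NP1-like neurons. Neighbours in this order overlapped throughout, and the highest mean was 1.66 times the lowest. In all, 5 of 15 class pairs did not overlap, where 39.6% of such pairs over all genes compared did not. Summed over all neurons, Ttpal stood at 21.0 and 21.1 CPM in deficient, 20.8 and 19.3 in supplemented and 20.5 and 21.9 in wild type mice. Both deficient mice were above both supplemented mice, and each of these groups overlapped wild type. Such orders of mice, here and below, are descriptions. The share of all genes with the same order was not counted. Its log2 fold changes (given throughout ± SE, with the groups in the order named) were -0.02 ± 0.13 in deficient against wild type, -0.12 ± 0.14 in supplemented against wild type and 0.10 ± 0.14 in deficient against supplemented mice.

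**Figure D1:**
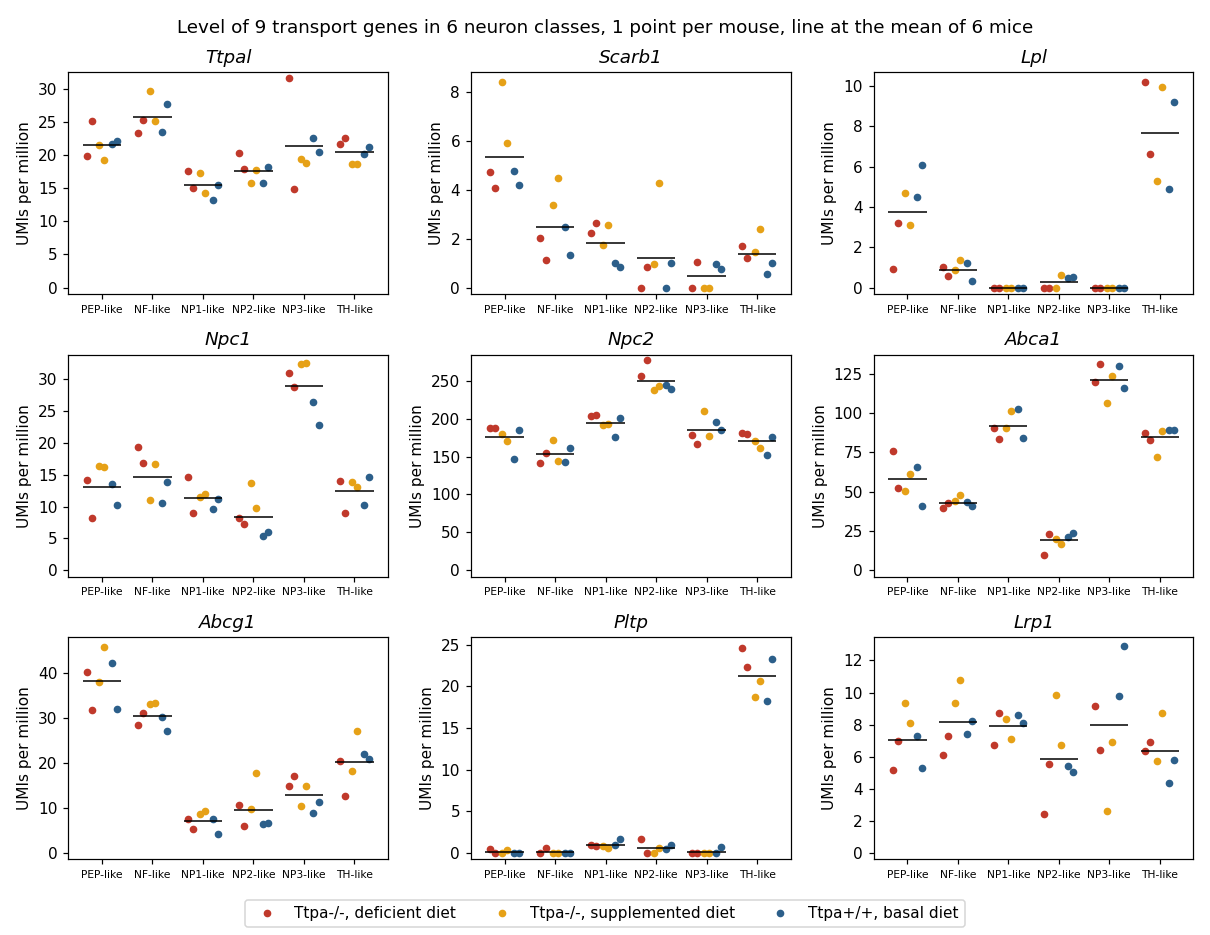
Level of 9 of the genes (y axis, CPM of a class in a mouse) in 6 neuron classes (x axis), with 1 point per mouse coloured by group and a black line at the mean of 6 mice. Pltp stands out in TH-like neurons (18.2 to 24.6), with 21.5 times the mean of NP1-like neurons, the next class. Abca1 is highest in NP3-like neurons (106 to 131), with only 1.31 times the mean of NP1-like neurons, the next class. Lrp1 overlaps in every pair of classes.

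Scarb1 encodes scavenger receptor class B type 1, a receptor for high-density lipoprotein that takes up lipid selectively and is a known route of tocopherol uptake (chromosome 5, 125277087 to 125341094). Among neurons it was a low gene with its highest mean in PEP-like cells, 5.35 ± 1.63 CPM (SD, n = 6 mice, range 4.08 to 8.41), against 2.47 ± 1.28 in NF-like, 1.84 ± 0.78 in NP1-like, 1.38 ± 0.63 in TH-like, 1.19 ± 1.59 in NP2-like and 0.47 ± 0.52 in NP3-like neurons. All neighbours in this order overlapped, and PEP-like neurons held 94 of the 213 Scarb1 UMIs of neurons (44.1%) with 19.35% of the neuron UMIs. The PEP-like clusters differed, with means of 7.65 CPM in cluster 0, 7.625 in cluster 6, 4.05 in cluster 5 and 1.84 in cluster 11. NF-like cluster 10 averaged 4.90 CPM. Endothelial-like cells had a mean of 42.7 CPM, from only 8 UMIs.

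Over all neurons, Scarb1 stood at 2.12 and 2.09 CPM in deficient, 2.84 and 3.24 in supplemented and 1.72 and 1.77 in wild type mice. Both supplemented mice were above the other 4, and both deficient mice were above both wild type mice. The log2 fold change was 0.76 ± 0.27 in supplemented against wild type mice, with an unadjusted edgeR p of 0.0147 and an adjusted p of 0.999, so it did not pass the threshold of 0.05. It was 0.26 ± 0.28 in deficient against wild type and -0.51 ± 0.27 in deficient against supplemented mice. The 11 satellite-glia markers summed to 229 and 155 CPM in deficient, 301 and 345 in supplemented and 220 and 144 in wild type neurons, with none at 0, and their part in the Scarb1 values was not tested. The 8 endothelial markers, also none at 0, overlapped between groups (61.5 and 73.3 CPM in deficient, 68.0 and 61.4 in supplemented, 65.3 and 69.3 in wild type neurons). A level over all neurons is a sum over classes, in which fewer cells of a type and less RNA per cell cannot be told apart.

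Lrp1, a large endocytic receptor that binds apolipoprotein E particles (chromosome 10, 127538161 to 127621148), was the flattest of the genes across classes. Its class means ran only between 8.19 ± 1.66 CPM in NF-like and 5.84 ± 2.42 CPM in NP2-like neurons, and 0 of 15 pairs of classes had ranges without overlap, where 39.6% of such pairs over 12377 genes did. Single clusters differed more, with means from 2.89 CPM in unnamed cluster 12 to 12.3 CPM in NF-like cluster 10. TH-like clusters 3 (2.74 to 5.32) and 4 (6.32 to 12.3) did not overlap. In all, 14 of 171 cluster pairs did not overlap, where 26.8% of such pairs over all genes compared did not. NP2-like and NP3-like neurons held only 58 and 55 Lrp1 UMIs. In neurons Lrp1 stood at 6.13 and 6.96 CPM in deficient, 7.68 and 7.54 in supplemented and 6.71 and 6.67 in wild type mice. Both supplemented mice were above the other 4. The log2 fold changes were -0.04 ± 0.18 in deficient against wild type, 0.15 ± 0.18 in supplemented against wild type and -0.19 ± 0.18 in deficient against supplemented mice.

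Lpl encodes lipoprotein lipase, the secreted enzyme that hydrolyses lipoprotein triglyceride and helps cells take up the lipids of the particle (chromosome 8, 68880491 to 68907448). It was concentrated in the unnamed neuron cluster 8, whose leading genes were Fam19a1, Trappc3l, Sema5a, Serpinb1b and Prokr2. That cluster had 39.3 ± 7.0 CPM (SD, n = 6 mice, range 30.2 to 49.1) and held 197 of the 433 Lpl UMIs of neurons (45.5%) with 5.11% of their UMIs. Its lowest mouse was above the highest mouse of each of the other 18 clusters compared, which 0.328% of 12488 genes also showed for that cluster. The next cluster was the TH-like cluster 4 at 12.5 ± 8.73 CPM (range 3.96 to 29.2), then the PEP-like cluster 11 at 9.88 ± 6.82, a cluster led by Smr2, Htr3a and Calml4.

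Other neurons had no Lpl UMI at all. NP1-like neurons had 0 in 20150048 UMIs, which allows up to 0.149 CPM at a floor of 3 counts over the 6 mice, so that the 40.9 CPM pooled over cluster 8 were at least 275-fold higher. NP3-like neurons and the NF-like cluster 13 were also at 0, with cluster 8 at least 88.3-fold and 47.3-fold higher. Among the named classes, TH-like neurons came first with 7.69 ± 2.39 CPM, before PEP-like (3.75 ± 1.75), NF-like (0.89 ± 0.39) and NP2-like neurons (0.27 ± 0.30), with each neighbour overlapping.

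**Figure D2:**
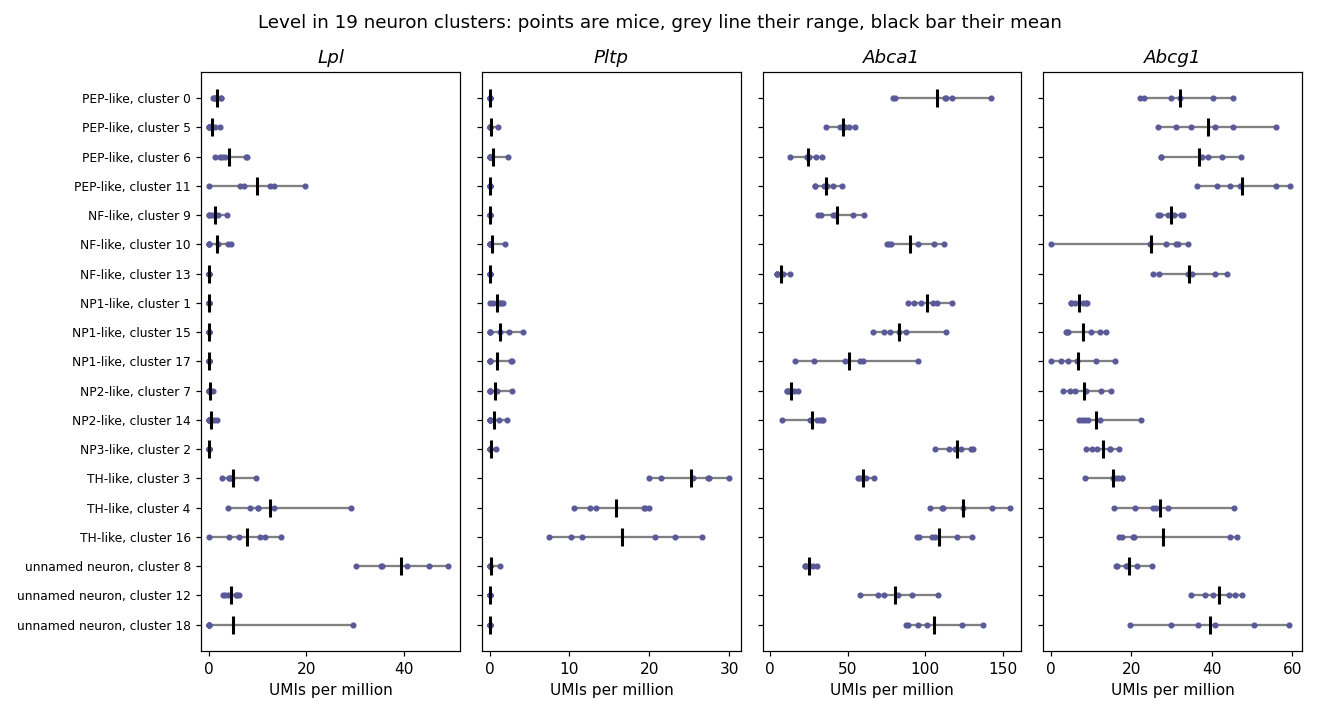
Level of Lpl, Pltp, Abca1 and Abcg1 (x axes, CPM) in 19 neuron clusters (rows, grouped by class), where points are the 6 mice, grey lines their range and black bars their mean. Lpl peaks in cluster 8 at 30.2 to 49.1, Pltp in the 3 TH-like clusters, and Abca1 spans means of 6.85 (cluster 13) to 124.5 (cluster 4).

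Between groups, Lpl in neurons stood at 3.25 and 4.35 CPM in deficient, 3.76 and 4.49 in supplemented and 4.69 and 6.29 in wild type mice. All 4 Ttpa-/- mice were below both wild type mice. The log2 fold change was -0.53 ± 0.24 in deficient against wild type mice (edgeR unadjusted p = 0.0511, adjusted p = 0.993) and -0.44 ± 0.24 in supplemented against wild type mice (adjusted p = 0.999), neither past the threshold, and -0.08 ± 0.26 in deficient against supplemented mice. The share of neurons in cluster 8 was 3.18% and 4.21% in deficient, 4.03% and 3.96% in supplemented and 3.75% and 5.76% in wild type mice, and its part in these sums was not tested alone. A matched cluster mix drew the same number of cells of each neuron cluster from every mouse. With it, the Lpl fold changes against wild type stayed negative and did not pass. Inside cluster 8 itself Lpl was at 30.2 and 40.5 CPM in deficient, 35.5 and 35.3 in supplemented and 49.1 and 45.2 in wild type mice. The order there was again all Ttpa-/- mice below both wild type mice, with log2 fold changes of -0.38 ± 0.28 (deficient) and -0.45 ± 0.28 (supplemented) against wild type, adjusted p = 0.999 and 0.990 by edgeR.

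In PEP-like neurons Lpl stood at 0.94 and 3.21 CPM (2 and 11 UMIs) in deficient, 4.67 and 3.12 CPM (10 UMIs each) in supplemented and 4.50 and 6.06 CPM (16 and 23 UMIs) in wild type mice. The deficient mice were below both wild type mice, and the log2 fold change was -1.22 ± 0.51 (edgeR unadjusted p = 0.0256, adjusted p = 0.9999). In TH-like neurons the groups overlapped, with 10.2 and 6.64 CPM in deficient, 5.26 and 9.94 in supplemented and 4.89 and 9.21 in wild type mice.

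Npc1 and Npc2 encode the membrane-bound and the soluble protein that together move cholesterol out of late endosomes and lysosomes. Npc1 (chromosome 18, 12189692 to 12236400) was highest in NP3-like neurons, at 29.0 ± 3.80 CPM (SD, n = 6 mice, range 22.8 to 32.5), 1.97 times the mean of NF-like neurons (14.7 ± 3.51). Every mouse's NP3-like value was above every value of the other 5 classes, which 3.24% of 12377 genes showed. The order below was PEP-like (13.1 ± 3.28), TH-like (12.5 ± 2.28), NP1-like (11.3 ± 2.01) and NP2-like neurons (8.40 ± 3.05), each overlapping the next. The NP3-like neurons formed a single cluster, which overlapped single clusters of other classes. Examples were NF-like cluster 9 (10.1 to 30.5 CPM) and PEP-like cluster 0 (9.93 to 28.5 CPM).

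Npc2 (chromosome 12, 84754562 to 84773152) was highest in another itch class, NP2-like neurons (lowest 238, median 244, highest 278 CPM), above every value of the other classes, which 1.1% of genes showed. NP1-like neurons followed with 195 ± 10.9 and NF-like neurons were last with 153 ± 12.1, so the span of class means was 1.64-fold. Within NP2-like neurons, cluster 14 had 310 ± 33.2 and cluster 7 had 207 ± 7.28 CPM, with no overlap (283 to 368 against 200 to 219). Cluster 7 overlapped clusters of other classes, such as PEP-like cluster 11 (182 to 277 CPM) and NP1-like cluster 1 (179 to 222 CPM). The separation thus held for the pooled class and not for each of its clusters.

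Npc1 in neurons stood at 15.6 and 10.2 CPM in deficient, 14.0 and 14.5 in supplemented and 10.98 and 11.39 in wild type mice. Both supplemented mice were above both wild type mice, while the 2 deficient mice were the highest and the lowest of all. The log2 fold changes were 0.18 ± 0.19 in deficient against wild type, 0.31 ± 0.19 in supplemented against wild type and -0.14 ± 0.19 in deficient against supplemented mice. Npc2 in neurons stood at 192 and 201 CPM in deficient, 187.5 and 176.6 in supplemented and 172.5 and 189.5 in wild type mice. Both deficient mice were above the other 4, and its log2 fold changes were 0.11 ± 0.12, -0.03 ± 0.12 and 0.13 ± 0.12 for the same contrasts. In classes, 2 results for Npc1 had an unadjusted p under 0.05 without passing.

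In NP2-like neurons Npc1 stood at 13.8 and 9.81 CPM in supplemented against 5.43 and 6.06 in wild type mice (0.95 ± 0.42, edgeR unadjusted p = 0.0306, adjusted p = 0.999). In PEP-like neurons it stood at 14.2 and 8.16 CPM in deficient against 16.4 and 16.2 in supplemented mice (-0.61 ± 0.28, edgeR unadjusted p = 0.0425, adjusted p = 0.9995). Satellite-glia markers summed to 288 and 304 CPM in supplemented and 150 and 120 in wild type NP2-like neurons, and to 444 and 256 in deficient and 592 and 600.0 in supplemented PEP-like neurons, with none at 0. Their part in these values was not tested.

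Abca1 encodes the transporter that loads cholesterol and phospholipid onto apolipoprotein A-I and also exports tocopherol, and it is a classical target of the liver X receptors (LXR). It lies on chromosome 4 (53030787 to 53159895), 33.0 Mb from Ttpa. Its promoter is shown because it is the member with the most class pairs without overlap. RefSeq (GRCm38.p6) gives the 300 bases from 250 before to 50 after the start site, chr4:53159846-53160145, minus strand, with capitals marking the motifs found:
Abca1: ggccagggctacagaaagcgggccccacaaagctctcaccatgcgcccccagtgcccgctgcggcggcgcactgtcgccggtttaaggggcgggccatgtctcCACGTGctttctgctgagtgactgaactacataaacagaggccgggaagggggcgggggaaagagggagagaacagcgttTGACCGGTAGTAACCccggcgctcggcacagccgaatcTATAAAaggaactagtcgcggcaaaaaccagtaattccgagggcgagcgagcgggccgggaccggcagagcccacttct
The first capitals are an E-box (CACGTG, starting at base -147 from the start site), the next an LXR-type direct repeat (starting at -67) and the last a TATA box (TATAAA, starting at -29). The repeat was searched as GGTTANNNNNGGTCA on both strands, reads on the reverse strand here and occurs in 0.0487% of 32851 mouse promoters of the same length, while the E-box occurs in 7.15% and the TATA box in 13.6%. The other form of the repeat, given below with Pltp, was not among the motifs found in the Abca1 letters. Whether the letters of the repeat were chosen independently of Abca1 is not recorded. Its low share therefore does not measure how unusual this match is. A match of letters is a description of the sequence and not a measured site.

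Abca1 was highest in NP3-like neurons at 121 ± 9.28 CPM (SD, n = 6 mice, range 106 to 131), above every value of the other classes, as 3.24% of genes were. NP1-like (91.9 ± 8.15) and TH-like neurons (84.8 ± 6.62) overlapped, as did PEP-like (57.7 ± 12.3) and NF-like neurons (43.0 ± 2.78). NP2-like neurons were below every value of the other classes at 19.04 ± 5.25 CPM (9.75 to 23.7), as 0.735% of genes were, and NP3-like neurons had 6.34 times their mean. Both classes are itch neurons, and they were the 2 ends of the Abca1 order of pooled classes, but not of single clusters. Among neuron clusters, TH-like cluster 4 had the highest mean (124.5 CPM) and overlapped the single NP3-like cluster. NF-like cluster 13 had the lowest (6.85 CPM). The means of PEP-like cluster 6 (24.7) and unnamed cluster 8 (25.3) lay between those of NP2-like clusters 7 (13.5) and 14 (27.2). In all, 12 of 15 class pairs did not overlap, where 39.6% of such pairs over all genes compared did not.

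Abca1 also separated clusters inside a class. The NF-like cluster 13, led by Cadps2 and Ntrk2, had 6.85 ± 3.40 CPM (4.14 to 13.0), while the NF-like cluster 10, led by Pvalb and Spp1, had 90.4 ± 16.2 (75.1 to 112), 13.2 times as much. Among PEP-like clusters, cluster 0 (led by Sstr2 and Zcchc12) had 108 ± 24.1 and cluster 6 (led by Slc5a7 and Gal) 24.7 ± 6.82 CPM. TH-like cluster 3 had 60.2 ± 3.67 and cluster 4 had 124.5 ± 20.2 CPM. The macrophage-like and endothelial-like clusters, with 37 and 30 Abca1 UMIs, averaged 100.1 and 149 CPM.

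Against these class differences, the groups were close. Abca1 in neurons stood at 76.3 and 63.6 CPM in deficient, 67.7 and 70.3 in supplemented and 74.1 and 58.5 in wild type mice. The groups overlapped, with log2 fold changes of 0.06 ± 0.14 in deficient against wild type, 0.02 ± 0.14 in supplemented against wild type and 0.04 ± 0.15 in deficient against supplemented mice. In NP3-like neurons, the class where it was highest, the values were 119 and 131 CPM in deficient, 106 and 123 in supplemented and 130 and 116 in wild type mice, also overlapping.

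Abcg1, the half-transporter that passes cholesterol to mature high-density lipoprotein and another LXR target (chromosome 17, 31057675 to 31117988), had a different class order from Abca1. It was highest in PEP-like neurons at 38.3 ± 5.63 CPM (SD, n = 6 mice), followed by NF-like (30.5 ± 2.48), TH-like (20.2 ± 4.71), NP3-like (12.9 ± 3.15), NP2-like (9.52 ± 4.49) and NP1-like neurons (7.11 ± 1.97). Each neighbour overlapped, but 8 of 15 class pairs did not, where 39.6% of such pairs over all genes compared did not. PEP-like neurons had 5.38 times the mean of NP1-like neurons. Among clusters it peaked in PEP-like cluster 11 (47.4 ± 8.80) and the unnamed cluster 12 (41.8 ± 4.75), which was led by Ptgfr and S100a16.

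Abcg1 in neurons stood at 19.5 and 17.9 CPM in deficient, 20.9 and 27.2 in supplemented and 22.4 and 21.6 in wild type mice. Both deficient mice were below the other 4. The log2 fold change was -0.34 ± 0.16 in deficient against supplemented mice (edgeR unadjusted p = 0.0507, adjusted p = 1), -0.25 ± 0.16 in deficient against wild type and 0.09 ± 0.16 in supplemented against wild type mice. In NP2-like neurons it stood at 10.6 and 5.94 CPM in deficient, 9.83 and 17.8 in supplemented and 6.42 and 6.56 in wild type mice.

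In that class the supplemented mice were above both wild type mice (1.12 ± 0.41, edgeR unadjusted p = 0.00987, adjusted p = 0.817) and overlapped the deficient mice (deficient against supplemented -0.92 ± 0.40, unadjusted p = 0.0309, adjusted p = 0.993), neither of which passed. Satellite-glia markers there summed to 171 and 116 CPM in deficient, 288 and 304 in supplemented and 150 and 120 in wild type mice, and their part was not tested.

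Pltp encodes phospholipid transfer protein, which moves phospholipid and tocopherol between lipoproteins (chromosome 2, 164839518 to 164857711, 1.22 Mb from Ttpal). Among neurons it was nearly restricted to TH-like cells. It averaged 21.3 ± 2.56 CPM there (SD, n = 6 mice; lowest 18.2, median 21.5, highest 24.6), 21.5 times the mean of the next class, NP1-like neurons (0.99 ± 0.39), and the other 4 classes averaged 0.09 to 0.62 CPM. TH-like neurons held 358 of the 389 Pltp UMIs of neurons (92.0%) with 17.9% of the neuron UMIs, and their range was above all other classes, as 3.04% of 12377 genes were. All 3 TH-like clusters carried it, cluster 3 with 25.3 ± 3.85, cluster 16 with 16.6 ± 7.88 and cluster 4 with 15.9 ± 4.18 CPM. By UMIs, which the sums count, cluster 3 was the largest TH-like cluster in every mouse but the wild type mouse 699, where it held 1235020 UMIs and cluster 4 held 1435343. Endothelial-like cells had 6 UMIs (mean 24.2 CPM).

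The Pltp promoter is shown as that of the member with the sharpest class pattern (RefSeq, GRCm38.p6, chr2:164857659-164857958, minus strand, the same window), with capitals at its only match to the motifs searched:
Pltp: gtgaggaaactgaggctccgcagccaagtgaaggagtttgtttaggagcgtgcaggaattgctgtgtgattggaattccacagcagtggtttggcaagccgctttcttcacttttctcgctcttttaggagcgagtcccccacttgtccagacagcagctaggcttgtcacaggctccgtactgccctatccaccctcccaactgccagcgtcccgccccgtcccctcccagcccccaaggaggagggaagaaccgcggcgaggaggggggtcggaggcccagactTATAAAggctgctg
The match is TATAAA starting at base 37 after the start site, where a TATA box is not usually found. Neither the LXR-type repeat above nor its form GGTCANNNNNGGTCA, present in 0.0761% of promoters, was found in these letters.

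Over all neurons Pltp stood at 4.99 and 4.41 CPM in deficient, 3.51 and 3.49 in supplemented and 4.28 and 4.03 in wild type mice. Both deficient mice were above the other 4 and both supplemented mice were below them. The log2 fold change was 0.45 ± 0.22 in deficient against supplemented mice (edgeR unadjusted p = 0.0630, adjusted p = 1), 0.16 ± 0.21 in deficient against wild type and -0.28 ± 0.22 in supplemented against wild type mice. With the matched cluster mix, the log2 fold change in supplemented against wild type mice was 0.00314. Within TH-like neurons, Pltp stood at 24.6 and 22.3 CPM in deficient, 18.7 and 20.7 in supplemented and 18.2 and 23.2 in wild type mice. There the deficient mice were still above both supplemented mice but overlapped wild type, with log2 fold changes of 0.24 ± 0.23 in deficient against supplemented, 0.14 ± 0.22 in deficient against wild type and -0.10 ± 0.23 in supplemented against wild type mice.

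**Figure D3:**
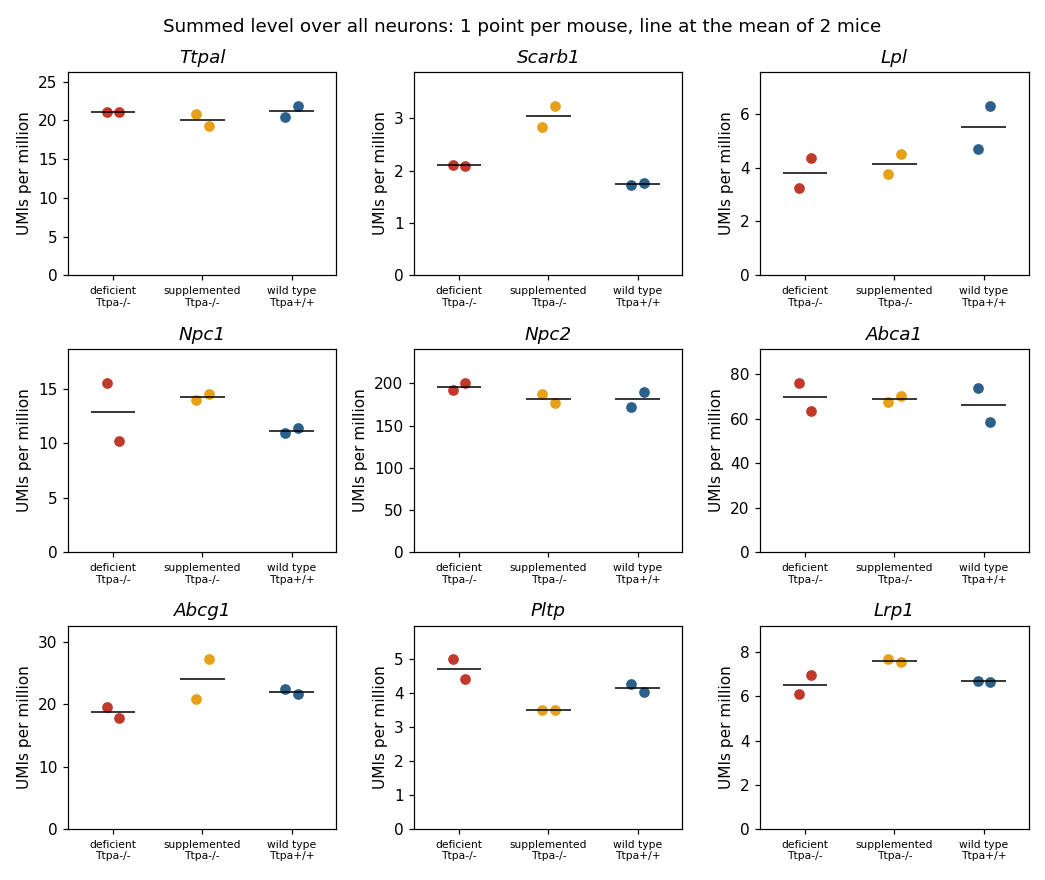
Level of 9 of the genes summed over all neurons (y axis from 0, CPM), with 1 point per mouse and a line at the mean of 2 mice. Scarb1 is highest in both supplemented mice (2.84 and 3.24) and Lpl in both wild type mice (4.69 and 6.29), and Abca1 overlaps in every pair of groups.

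Across the 9 tested genes and 3 contrasts, none passed in all neurons. By edgeR's quasi-likelihood test, adjusted by Benjamini-Hochberg over 13356 genes, 0 of 27 tests had an adjusted p under 0.05 (0% of all genes in each contrast) and 1 of 27 had an unadjusted p under 0.05, where all genes had 3.9% in deficient against wild type, 3.83% in supplemented against wild type and 2.53% in deficient against supplemented mice. DESeq2 and limma-voom also made 0 calls among the 9 genes. Of all genes, DESeq2 called 0.015% in deficient against wild type, 0.0898% in supplemented against wild type and 0% in deficient against supplemented mice. The median log2 fold change of the 9 was 0.06, 0.02 and -0.08 in these contrasts, beside -0.0083, -0.0147 and -0.0038 over all genes, with 5, 5 and 4 of 9 above 0. In the 6 classes, 39 tests on members in each contrast gave 0 calls, where all genes had 0.0157% in deficient against wild type, 0.0559% in supplemented against wild type and 0.00524% in deficient against supplemented mice (0.0256% in all). An unadjusted p under 0.05 occurred 5 times, each named above, where all genes had 2.85%, 4.53% and 3.41% in these contrasts (3.6% in all). In the unnamed clusters 8, 12 and 18 there were 0 calls and 0 unadjusted p under 0.05 in 36 tests (0.031% and 3.86% of all genes). Biological variation between mice of a group came to a coefficient of 12.3% in neurons. In counts simulated for deficient against wild type neurons, the test recovered 44 of 50 genes changed 2-fold and 17 of 50 changed 1.5-fold. The simulation gave every gene this same variation and changed only genes above a minimum mean count. Classes and clusters were not simulated. The labels do not say how mice relate as litters or runs, so p-values rest on the spread between these 6 mice.

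**Figure D4:**
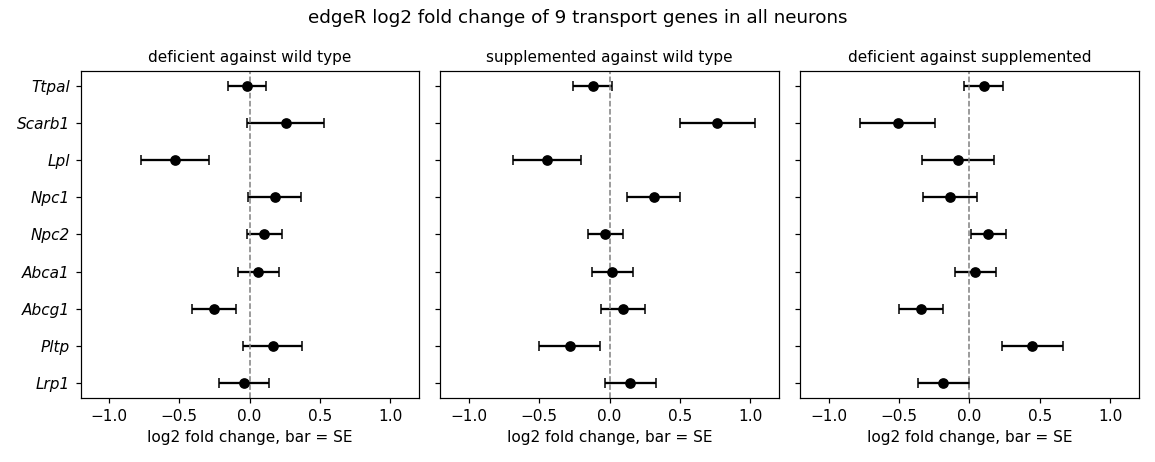
Log2 fold change over all neurons (x axis, bars are SE) of 9 of the genes (rows) in the 3 contrasts (panels), each the first group over the second. The points run between -0.53 (Lpl, deficient against wild type) and 0.76 (Scarb1, supplemented against wild type), and none had an adjusted p under 0.05.

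The genes whose levels followed each member most closely over the 36 sums (6 mice by 6 classes, log2 of CPM plus 1) were found among 9547 genes by Pearson correlation. These sums share libraries and class differences, so the values are a description. For Abca1 they were Runx1 (r = 0.86), a transcription factor of nociceptors, Tmem14a and Slc29a1. For Abcg1 they were Igf2r (0.92), the receptor for lysosomal enzymes and insulin-like growth factor 2, Irf2bp2 and Map4. Npc1 was closest to Ptrf (0.84), a caveolar coat protein gene, Bbx and Pkn2, and Npc2 to Zfp945 (0.88), Smyd3 and Krt27. Ttpal was closest to Osbpl2 (0.83), an oxysterol-binding protein gene, Pnma2 and Pnkd, while Lrp1, flat across classes, reached only 0.62 with Elk4, followed by Qser1 and Zfp672. Chosen outside the rule and after values were seen, Pltp was closest to the TH-like marker Cdh9 (0.96), AW551984 and Bmp15, Lpl to Gpr162 (0.91), Fxyd6 and Scn3a, and Scarb1 to Cdkl2 (0.81), Clcn6 and Clip4.

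The wider pathway was followed in 5 lists of 92 related genes, 71 of which were tested in neurons. None was called in any contrast over all neurons by edgeR or limma-voom, while DESeq2, and edgeR with a matched cluster mix, called Apoe in supplemented against wild type mice, where they called 0.0898% and 0.123% of all genes. By edgeR, 5 of 71 had an unadjusted p under 0.05 in deficient against wild type, 6 in supplemented against wild type and 5 in deficient against supplemented mice, beside 3.9%, 3.83% and 2.53% of all genes. Positive log2 fold changes numbered 29, 40 and 21 of 71, beside 48.0%, 46.2% and 49.1% of all genes, with medians of -0.02, 0.04 and -0.08. Without the filter on low counts, where edgeR called 0.425%, 0.653% and 0.145% of 19302 genes in these contrasts, it called among 88 list genes Sdc1 in deficient against wild type, Abca8a, Apod, Apoe and Sdc1 in supplemented against wild type (all higher), and Abca8a and Apoe in deficient against supplemented mice (both lower).

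The exception in classes was Apoe, which encodes the apolipoprotein that glia secrete and that lipoprotein receptors bind. By edgeR it was the only list gene called in a class, higher in supplemented mice, where 0.121% of all genes were called in NP1-like and 0.0996% in NP2-like neurons against wild type, and 0.01% and 0.0221% between deficient and supplemented mice. In NP1-like neurons it stood at 112 and 98.7 CPM in deficient, 183 and 249.4 in supplemented and 103 and 109 in wild type mice. Both supplemented mice were above the other 4, with 1.002 ± 0.15 in supplemented against wild type (edgeR adjusted p = 0.00415) and -1.04 ± 0.15 in deficient against supplemented mice (edgeR adjusted p = 0.00712). In NP2-like neurons it stood at 191 and 219 CPM in deficient, 374 and 480 in supplemented and 214 and 243 in wild type mice. The supplemented mice were again highest, with 0.87 ± 0.17 in supplemented against wild type (edgeR adjusted p = 0.0171) and -1.06 ± 0.17 in deficient against supplemented mice (edgeR adjusted p = 0.00394).

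In the unnamed cluster 18, Apoe stood at 477 and 324 CPM in deficient, 459 and 1345 in supplemented and 590.1 and 220 in wild type mice, and it was called at 1.15 ± 0.26 in supplemented against wild type (edgeR adjusted p = 0.0190) and -1.29 ± 0.29 in deficient against supplemented mice (adjusted p = 0.0155) although the groups overlapped (0.0889% of all genes called in each contrast). Satellite-glia markers, all 11 with UMIs, summed to 341 and 343 CPM in deficient, 667 and 961.0 in supplemented and 381 and 117.2 in wild type mice in this cluster, and their part was not tested.

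With a mouse left out, its group is a single mouse assumed to vary like the other groups. All 6 Apoe calls ended without supplemented mouse 671, while the log2 fold changes were 0.72 and -0.76 in NP1-like, 0.63 and -0.82 in NP2-like neurons and 0.09 and -0.24 in cluster 18, for supplemented against wild type and deficient against supplemented mice. The adjusted p were then 0.194 and 0.524 in NP1-like, 0.702 and 0.715 in NP2-like neurons and 0.981 and 0.987 in cluster 18, in the same order. The call in NP1-like neurons also ended without wild type mouse 698 (adjusted p = 0.193) or 699 (0.0776) and, against deficient mice, without 657 (0.0777). In NP2-like neurons it ended without 698 (0.0824) and, against deficient mice, without 654 (0.265) or without the shallowest libraries (0.117). In cluster 18 it ended, against wild type, without 699 (0.926) and, against deficient mice, without 654 (0.0588) or 657 (0.757). Leaving out the shallowest libraries (0.672 and 0.974), DESeq2 (0.9996 and 0.9992), limma-voom (0.0872 and 0.328), thinning (0.984 and 0.979) and no filter on low counts (0.380 and 0.0856) ended both calls there, and a term for sex ended the one against deficient mice (0.0985).

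Satellite-glia markers moved the same way as Apoe in both named classes. All 11 together summed to 120.0 and 76.0 CPM in deficient, 185 and 184 in supplemented and 80.1 and 71.0 in wild type NP1-like neurons, and to 171 and 116, 288 and 304, and 150 and 120 CPM in NP2-like neurons of the same groups, with none at 0. The satellite-glia marker Fabp7 stood at 54.2 and 38.3 CPM in deficient, 74.7 and 103 in supplemented and 36.8 and 35.9 in wild type NP1-like neurons, and at 67.5 and 68.3, 140 and 206, and 85.0 and 74.2 CPM in NP2-like neurons of the same groups. Their part in the Apoe values was not tested.

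In deficient against wild type neurons, the list genes with the smallest p in each direction are given as values, since none passed. Among lipoprotein receptors and uptake genes, Sdc1, a heparan sulfate proteoglycan that binds remnant lipoproteins, stood at 15.4 and 10.0 CPM in deficient against 6.65 and 7.26 in wild type mice (0.84 ± 0.22), with Lrp4 at 0.32 ± 0.38, Gpc1 at -0.28 ± 0.21 and Vldlr, a lipoprotein receptor, at -0.29 ± 0.23. Among tocopherol and CRAL-TRIO genes, Prune2 was at 0.36 ± 0.15, Rlbp1 at 1.11 ± 0.61, Clvs2, which binds a phosphoinositide on endosomes, at -0.58 ± 0.24 and Sec14l2 at -0.20 ± 0.29. Among efflux genes, Abcb4 was at 0.21 ± 0.26, Abcc1 at 0.15 ± 0.20, Abcb1a, the P-glycoprotein drug efflux pump, at -0.99 ± 0.35 and Abcg4 at -0.30 ± 0.22. Among apolipoproteins, Apod was at 0.22 ± 0.28, Clu at -0.36 ± 0.16 and Apoc1 at -0.19 ± 0.46. Among sterol transport genes, Stard3 was at 0.24 ± 0.15, Tmem97, which binds NPC1, at 0.33 ± 0.23, Osbpl9 at -0.19 ± 0.13 and Gramd1c at -0.31 ± 0.31.

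In supplemented against wild type neurons, Apoe stood at 319 and 474.5 CPM in supplemented against 252 and 198 in wild type mice (0.78 ± 0.19, edgeR adjusted p = 0.581). Apod, another apolipoprotein, was at 0.88 ± 0.27 and Clu at -0.08 ± 0.16. Satellite-glia markers over all neurons, given above with Scarb1, were also higher in both supplemented than in both wild type mice (301 and 345 against 220 and 144 CPM), and their part was not tested. Sdc1 was at 0.75 ± 0.22, Mylip, a ubiquitin ligase gene that is an LXR target, at 0.60 ± 0.29, Lmf1 at -0.22 ± 0.23 and Lrp4 at -0.35 ± 0.41. Rlbp1 was at 1.40 ± 0.59 at under 1 CPM, Prune2 at 0.21 ± 0.15, Clvs2 at -0.41 ± 0.24 and Clvs1 at -0.17 ± 0.15. Abca8a, an ABC lipid transporter, was at 0.62 ± 0.22, Abcb4 at 0.43 ± 0.25, Nr1h2, which encodes LXR beta, at -0.14 ± 0.14 and Abca7 at -0.12 ± 0.13. Stard4 was at 0.19 ± 0.14, Cav1 at 0.18 ± 0.14, Osbpl6 at -0.13 ± 0.13 and Osbpl8 at -0.10 ± 0.13.

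In deficient against supplemented neurons, all 4 tested apolipoproteins had negative values, with a list median of -0.76, led by Apoe (-0.86 ± 0.19) and Apoc1 (-1.27 ± 0.42, at 0.45 and 0.62 CPM in deficient against 1.33 and 1.37 in supplemented mice). Satellite-glia markers summed to 229 and 155 CPM in deficient against 301 and 345 in supplemented neurons, and their part was not tested. Of the 16 efflux genes 15 had negative values, where 49.1% of all genes had positive ones, with Abca8a at -0.69 ± 0.22, Abcb1a at -0.96 ± 0.36 and the only positive one, Nr1h2, at 0.18 ± 0.14. The lists of receptors (6 of 17 positive), sterol transport (10 of 24) and CRAL-TRIO genes (4 of 10) had medians of -0.10, -0.02 and -0.05. Among their genes with the smallest p were Lrp4 (0.67 ± 0.41), Lmf1 (0.25 ± 0.23) and Mylip (-0.60 ± 0.30), then Stard3 (0.27 ± 0.15), Tmem97 (0.19 ± 0.24), Osbpl10 (-0.54 ± 0.38) and Gramd1c (-0.45 ± 0.31), then Prune2 (0.15 ± 0.15), Bnip2 (0.14 ± 0.15), Sec14l1 (-0.23 ± 0.17) and Clvs2 (-0.17 ± 0.25). None of them passed.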

How the data were processed

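The authors deposited 1 table of UMI counts (27998 genes by 21685 cells, 8608 genes without a count), with the mouse given by the number after the hyphen in each cell name. Per the submitters' processing notes, bcl2fastq 2.17.1.14, Cell Ranger 2.0.1, Seurat 2.3.0 and limma 3.32.10 were used with mm10. Per the labels' protocols, libraries were 3' droplet libraries, so a count is of 3' ends and levels are not compared between genes.

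Cells under 500 genes or over 20% mitochondrial UMIs (27) were removed. The automatic doublet threshold marked 45 cells, so 634 (2.93%) were removed at the expected rate of 0.8% per 1000 cells. Clusters were made with scanpy 1.11.5 (2000 variable genes, 30 components, 15 neighbours, leidenalg 0.10.2, resolution 1, no integration), leaving the 10 genes and the lists out of the variable genes. Naming went by the best-scoring marker set, if at least 3 of its markers reached 5% of the cells and a fold of 1.5, and no other set had more markers among the 10 leading genes. UMIs were summed per mouse over neurons (11983382 to 18604670) and over classes whose smallest sample held at least 20 cells. The mouse was the replicate in edgeR 4.0.16 (TMM, filterByExpr, quasi-likelihood test, all 3 groups in 1 fit, threshold 0.05), tested on simulated data. CPM are plain, without TMM. Classes were compared by whether ranges over 6 mice overlap, among genes of 1 CPM or more on average, with no test. Genes of lists were named if called, or as the 2 with the smallest p per list and direction; 1 gene so named is not reported here. Alternatives used DESeq2 1.42.0 and limma 3.58.1 among others. The 10 genes, lists and markers were chosen with earlier results of these data known.

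Positions are from GENCODE M21 on GRCm38. A promoter was found for 4 of the 10 genes.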

Additional observations from a re-analysis of the deposited data

How the results depend on the processing

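No gene of the 10 passed in any alternative run, over all neurons, in classes or in clusters 8, 12 and 18, and the smallest adjusted p was 0.336. The alternatives were RLE scaling, no filter on low counts, DESeq2, limma-voom, sex as a term, doublets kept, thinning, each mouse left out, a matched cluster mix, a stricter cell filter (1000 genes, 10% mitochondrial), all cells, for class levels 2 other Leiden resolutions (0.5 and 2) and clustering with the 10 genes and the lists allowed (0 of the 10 then entered, so this could not test their use in clustering), and, chosen after seeing the data, leaving out the shallowest libraries (654 and 670). Of 337 alternative fold changes of the 10 genes other than those with 1 mouse left out, 11 changed sign; the cause was not tested. Thinning gave Ttpal 0.0140 in deficient against wild type, Abca1 -0.00121 in supplemented against wild type and Lpl 0.00102 in deficient against supplemented neurons. The matched mix gave Abca1 -0.0838 in deficient and -0.0966 in supplemented against wild type and Pltp 0.00314 in supplemented against wild type. The stricter filter gave Abca1 -0.00117 in supplemented against wild type. Without the shallowest libraries, deficient against wild type values were -0.0532 for Abca1, 0.0627 for Lrp1 and -0.131 for Npc1, and Abca1 was -0.114 in deficient against supplemented.

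With 1 mouse left out, values in deficient against wild type ran from -0.0649 to 0.0366 for Ttpal, -0.0897 to 0.244 for Abca1, -0.154 to 0.0624 for Lrp1 and -0.131 to 0.449 for Npc1. In supplemented against wild type they ran from -0.138 to 0.201 for Abca1, -0.0947 to 0.0415 for Npc2 and -0.124 to 0.278 for Abcg1, and in deficient against supplemented from -0.0728 to 0.155 for Abca1, -0.340 to 0.114 for Lpl and -0.444 to 0.135 for Npc1.

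Among list genes in deficient against wild type, the matched mix gave Apoc1 0.165, Vldlr 0.00169 and Sec14l2 0.457, and leaving out the shallowest libraries gave Apod -0.170, Apoc1 0.00798, Abcc1 -0.0269 and Sec14l2 0.0698. In supplemented against wild type the matched mix gave Clu 0.0726, Cav1 -0.0260, Osbpl6 0.0526 and Lrp4 0.0353, and leaving out the shallowest libraries gave Clu 0.113 and Osbpl8 0.00799. In deficient against supplemented the matched mix gave Clvs2 0.0446. With 1 mouse left out, deficient against wild type ranges were -0.171 to 0.551 for Apod, -0.473 to 0.00763 for Apoc1, -0.0274 to 0.328 for Abcc1, -0.626 to 0.145 for Abcg4 and -0.568 to 0.101 for Sec14l2. Supplemented against wild type ranges were -0.302 to 0.112 for Clu, -0.223 to 0.00746 for Osbpl8 and -0.459 to 0.00634 for Lmf1, and deficient against supplemented ranges were -0.122 to 0.541 for Tmem97 and -0.613 to 0.142 for Clvs2. Apoe calls in classes were lost in 26 of 82 alternatives over 6 results. The list genes and Apoe were followed through these alternatives after results were seen. Class calls of other list genes appeared in some: Prune2, Abca8a and Apod without the filter on low counts, and Apod or Abca8a with 1 mouse or the shallowest libraries left out.

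Class means moved by more than 1 SD in 1 of 240 values: Pltp in NP3-like neurons was 0.95 CPM with doublets kept and 0.13 without. No paired analysis was possible because the labels give no replicate numbers shared between groups, but each group held 1 female and 1 male, and the fit with sex as a term, which blocks mice by sex, also called 0 of the 10 genes. Depth limits Ttpa, Scarb1, Lpl and Pltp, which had 13, 213, 433 and 389 UMIs in neurons.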
